A study of Mus musculus with 12 samples.

Results

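The lung mesenchyme transcription factors described here are Foxf1, Tbx2, Tbx3, Tbx4, Tbx5, Meox1, Meox2, Twist1, Twist2 and Prrx1, 10 of the 20606 genes in the deposited table. They were picked by gene symbol, and all 10 were among the 13300 genes that reached 1 FPKM in at least 3 libraries. FPKM, fragments per transcript length and sequencing total, is scaled for transcript length, so levels of different genes can be set side by side. Bulk RNA sequencing was done on polyA RNA of mouse lung fibroblasts in 4 groups of 3 libraries. M-MF and M-MyoF are the MF and MyoF subgroups from lungs of mice with metastasis, and N-MF and N-MyoF are the same subgroups from normal mice. MF stands for the matrix fibroblasts of the series title, about spread of breast cancer to the lung, and MyoF is used as the labels give it. The sources used here give no strain, age, tumour line or gate by which the subgroups were separated. No source ties the 3 libraries of a group to different animals. The p-values therefore reflect the spread among libraries alone, and that spread may be technical.

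These factors belong to families that pattern mesenchyme, the embryonic tissue from which fibroblasts, smooth muscle and cartilage arise. Foxf1, a forkhead factor, responds to Hedgehog signals that the lung epithelium sends to the mesenchyme around it, and it is also active in lung endothelium. Tbx4 and Tbx5 are T-box activators of the lung bud mesenchyme that act upstream of Fgf10, while the T-box repressors Tbx2 and Tbx3 restrain genes that stop the cell cycle. Meox1 and Meox2 are homeobox factors first known from somites, and Prrx1 is a paired-related homeobox factor of limb and face mesenchyme. Twist1 and Twist2 are basic helix-loop-helix proteins that pair with E proteins on E-box DNA, and Id proteins take those partners away.

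In the RefSeq annotation of GRCm38.p6, Tbx2 (chr11:85832615-85841948) and Tbx4 (chr11:85886367-85916097) stand 44.4 kb apart with 0 protein-coding genes between them. Tbx3 (chr5:119670534-119684724) and Tbx5 (chr5:119796514-119885220) stand 111.8 kb apart, also with 0 protein-coding genes between them. Noncoding genes overlap 4 members: Tbx3os1 overlaps Tbx3, Gm5563 overlaps Tbx5, Gm46117 overlaps Twist2, and LOC108167740 and Gm20471 overlap Prrx1. They were not analysed here, nor was Fendrr, the long noncoding RNA that starts 1.27 kb from Foxf1. Whether the authors counted by strand is not given in the sources used here, so reads of these members and of an overlapping transcript cannot be told apart.

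RefSeq promoter windows were at hand for 5 of the 10 members, and the 250 bases before the start are shown for the 4 on which the comparisons turn. Meox2 and Twist2 fell most in matrix fibroblasts of lungs with metastasis together with Meox1, Twist1 went the other way, and Tbx4 was the most abundant factor in MyoF. The windows are chr12:37108290-37108539 for Meox2, chr1:91801211-91801460 for Twist2, chr12:33957421-33957670 for Twist1 and chr11:85896515-85896764 for Tbx4, all on the plus strand. The Tbx4 window lies inside the annotated span of the gene. So does the Prrx1 window (chr1:163313651-163313900, minus strand), whose bases are not shown, inside Prrx1 at chr1:163245119-163315145. Capitals mark the E-box CANNTG, which Twist proteins and their partners can bind, and TATAAA, each read on both strands.
Meox2: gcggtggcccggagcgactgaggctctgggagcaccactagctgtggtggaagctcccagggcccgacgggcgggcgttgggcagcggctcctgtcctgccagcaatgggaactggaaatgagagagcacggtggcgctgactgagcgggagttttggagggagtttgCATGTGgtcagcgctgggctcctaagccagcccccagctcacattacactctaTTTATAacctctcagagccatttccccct
Twist2: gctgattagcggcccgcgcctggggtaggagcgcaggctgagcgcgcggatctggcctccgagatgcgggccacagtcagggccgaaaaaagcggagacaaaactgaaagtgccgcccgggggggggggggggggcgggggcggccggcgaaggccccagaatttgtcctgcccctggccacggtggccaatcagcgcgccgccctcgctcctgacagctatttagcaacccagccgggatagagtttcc
Twist1: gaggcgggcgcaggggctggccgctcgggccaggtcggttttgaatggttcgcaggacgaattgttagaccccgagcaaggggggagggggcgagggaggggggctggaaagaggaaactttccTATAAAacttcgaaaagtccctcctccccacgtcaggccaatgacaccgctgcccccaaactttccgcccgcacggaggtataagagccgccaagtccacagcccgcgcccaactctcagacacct
Tbx4: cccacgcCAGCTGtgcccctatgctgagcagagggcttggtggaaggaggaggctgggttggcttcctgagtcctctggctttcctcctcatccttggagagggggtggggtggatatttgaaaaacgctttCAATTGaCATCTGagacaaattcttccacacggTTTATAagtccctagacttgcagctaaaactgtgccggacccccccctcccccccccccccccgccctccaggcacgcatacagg
The E-box letters stood 3 times in the Tbx4 window and 1 time in the Meox2 window, and 66.2% of all 32851 windows of this length held them. They stood 0 times in the Twist1, Twist2 and Prrx1 windows. TATAAA stood 1 time each in the Tbx4, Meox2 and Twist1 windows, against 12.4% of all windows. The T-box letters AGGTGT, on both strands, stood 1 time in the Twist1 window and in 11.8% of all windows. The homeobox letters TAATTA stood 1 time in the Prrx1 window and in 4.8% of all windows. G and C made up 68.8% of the Twist2 window, 62.4% of the Twist1 window, 62.0% of the Meox2 window, 58.4% of the Tbx4 window and 47.6% of the Prrx1 window, against a median of 52.4% over all windows. Windows for Foxf1, Tbx2, Tbx3, Tbx5 and Meox1 were not used here.

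Read depth is unknown, and FPKM summed to between 528176 and 618478 per library, with Pearson correlations of 0.998 to 0.999 between libraries of a group. The labelled subgroups were checked against cell type markers, as the summed FPKM of each list over the 3 libraries of a group. Myofibroblast markers (Acta2, Tagln, Myh11, Hhip, Aspn, Lgr6) summed to 2934 to 2989 in M-MyoF and 4460 to 4569 in N-MyoF, against 293.5 to 297.8 in M-MF and 447 to 463.9 in N-MF. All 6 passed as lower in MF than in MyoF in both conditions (limma, Benjamini-Hochberg adjusted p under 0.05). Between metastasis and normal lungs they split, 4 higher and 2 lower in M-MF and 2 higher and 3 lower in M-MyoF. Acta2 and Tagln stood higher in M-MyoF (948.5 and 439.4 FPKM) than in N-MyoF (628.0 and 292.2). Hhip and Aspn stood lower there, at 786.9 and 682.8 FPKM against 2231 and 1210. General fibroblast markers (Col1a1, Col1a2, Dcn, Lum, Pdgfra) summed to 10970 to 11000 in M-MF and 17400 to 17580 in N-MF, but to 1327 to 1338 in M-MyoF and 2516 to 2552 in N-MyoF. Matrix fibroblast markers summed to 1549 to 1558 in M-MF, 5394 to 5530 in N-MF, 435.8 to 439 in M-MyoF and 1075 to 1096 in N-MyoF. By these sums, the MyoF libraries carried less of the general and matrix fibroblast markers than the MF libraries did. All 5 general markers passed as higher in MF in both conditions. Of the 6 matrix markers (Col13a1, Col14a1, Tcf21, Npnt, Dpt, Inmt), 4 passed as higher and 1 as lower in M-MF against M-MyoF. In N-MF against N-MyoF, 4 passed as higher and 2 as lower. Npnt was the other way round, at 11.1 FPKM in M-MF and 12.2 in N-MF against 22.8 in M-MyoF and 39.6 in N-MyoF. Inmt and Dpt made up most of each matrix sum. Epithelial markers were above the fibroblast sum in MyoF, at 15120 to 15670 in M-MyoF and 18650 to 19150 in N-MyoF, against 2711 to 2737 in M-MF and 2235 to 2285 in N-MF. Scgb1a1, a club cell protein, and Sftpc made up nearly all of each sum. They stood at 12280 and 3103 FPKM in M-MyoF and at 14810 and 4051 in N-MyoF. Epcam, Cdh1 and Foxj1 stood at 6.15, 5.60 and 1.43 FPKM in M-MyoF and at 5.96, 7.14 and 1.13 in N-MyoF. In bulk libraries like these, fewer cells of a type and less RNA per cell cannot be told apart.

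**Figure D1:**
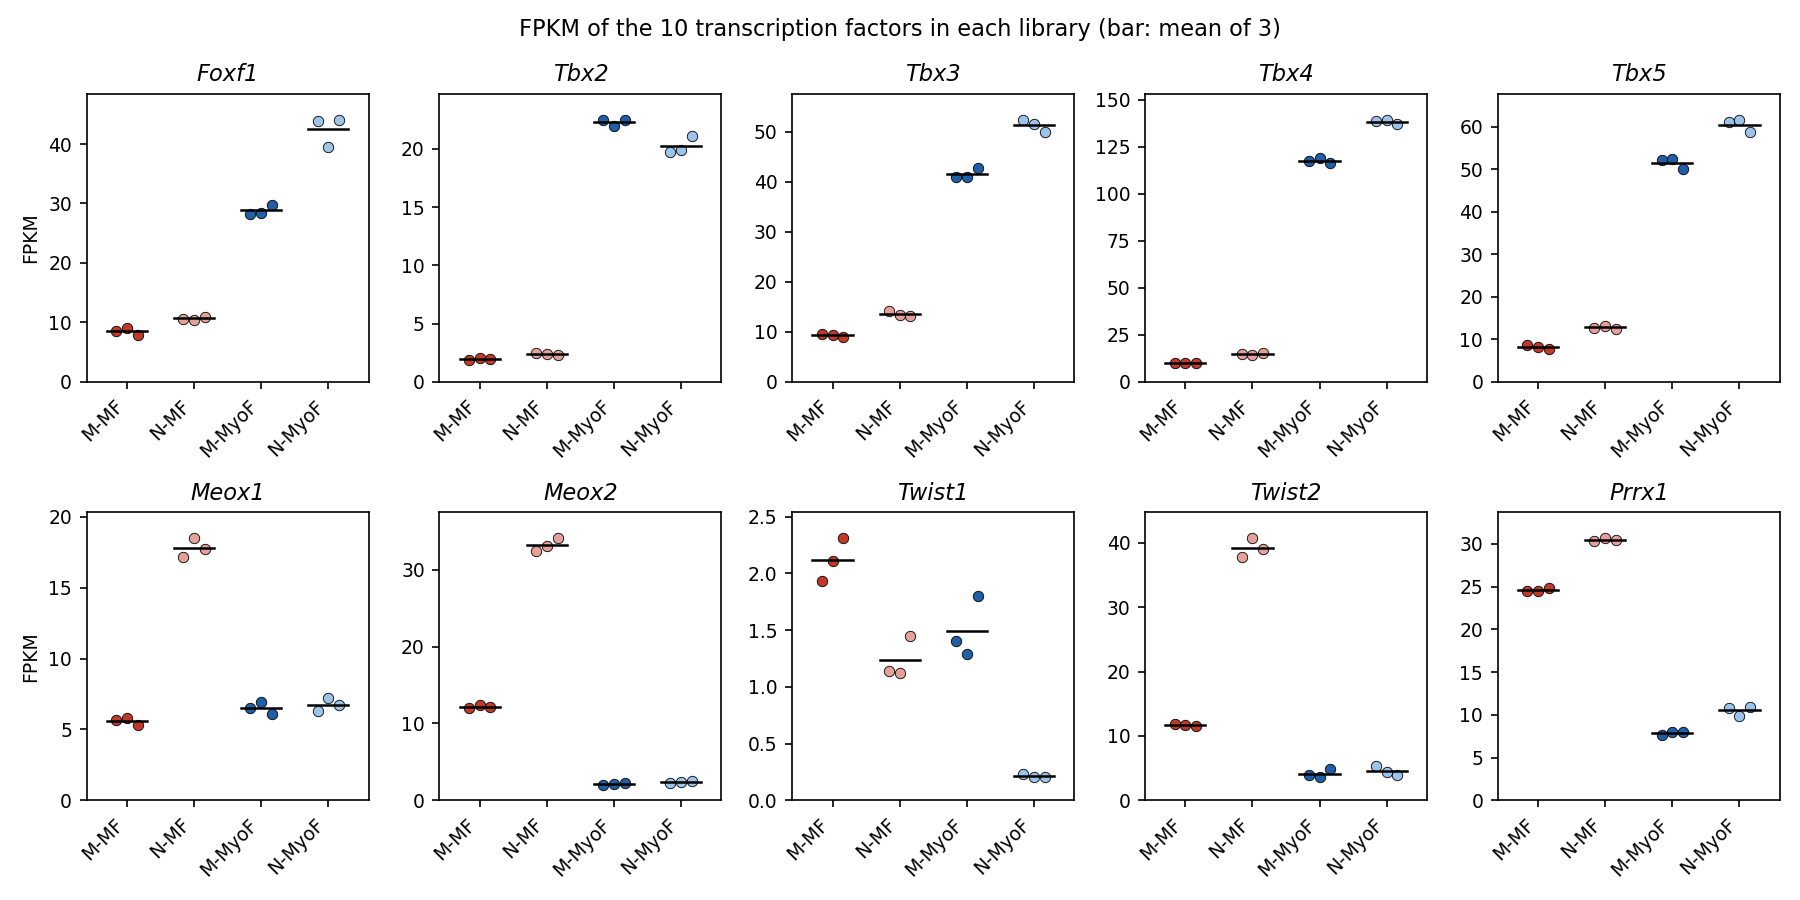
FPKM of each factor in every library, by group, with a bar at the mean of 3 libraries and an axis from 0 for each gene. Foxf1 and the 4 Tbx genes stand higher in both MyoF groups, Meox2, Twist2 and Prrx1 stand higher in both MF groups, Meox1 is high in N-MF alone of the 4 groups, and Twist1 is lowest in N-MyoF.

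MF and MyoF split the factors into 2 sets. Foxf1 and the 4 T-box genes were lower in MF than in MyoF, and Meox2, Twist2 and Prrx1 were higher, in lungs with metastasis and in normal lungs alike. In M-MF against M-MyoF, 4 of 10 members passed as higher and 6 as lower, where 19.1% of all 13300 genes passed as higher and 66.0% as lower (limma, Benjamini-Hochberg adjusted p under 0.05). At 2-fold or more, 3 were higher and 5 lower, against 4.74% and 8.82% of all genes. In N-MF against N-MyoF, 5 passed as higher and 5 as lower, against 24.5% and 57.6% of all genes, and 4 and 5 did so at 2-fold, against 4.88% and 11.9%. The groups did not overlap for any of the 10 members in either comparison, which held for 85.6% of all genes in metastasis and 82.4% in normal lungs. The median log2 change of the members was -0.92 in metastasis and -0.48 in normal lungs, against -0.29 and -0.21 for all genes. Log2 changes throughout are of FPKM + 1, which understates those of low genes. Of the calls over all genes, 22.4% were higher in M-MF than in M-MyoF and 29.8% higher in N-MF than in N-MyoF. Median-ratio scaling made these shares 48.8% and 53.8%, and quantile normalization 47.2% and 52.1%, shifting the median of all genes by 0.28 and 0.24, or by 0.27 and 0.23. The directions given for Foxf1, the Tbx genes, Meox2, Twist2 and Prrx1 were kept under these scalings and with equal sums per library.

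Tbx4, an activator of lung bud outgrowth, had 10.28, 9.77 and 10.06 FPKM in M-MF and 15.06, 14.35 and 15.31 in N-MF. In MyoF it had 117.40, 119.23 and 116.58 FPKM in M-MyoF and 138.79, 139.46 and 137.03 in N-MyoF. Every MyoF library was above every MF library, and Tbx4 was the most abundant of the 10 factors in MyoF, above 93.4% of genes in M-MyoF and 95.7% in N-MyoF. Its FPKM was 11.7-fold lower in M-MF than in M-MyoF, with a log2 change of -3.43 ± 0.0269 (SE; limma adjusted p = 1.39e-17). It was 9.29-fold lower in N-MF than in N-MyoF (-3.13 ± 0.0269; limma adjusted p = 2.18e-17). Tbx5, its partner in the lung bud, followed the same order of groups. It had 8.57, 8.10 and 7.83 FPKM in M-MF and 12.75, 13.15 and 12.55 in N-MF, against 52.20, 52.36 and 50.12 in M-MyoF and 61.09, 61.68 and 58.79 in N-MyoF. It was 6.31-fold lower in M-MF than in M-MyoF (-2.52 ± 0.0343) and 4.72-fold lower in N-MF than in N-MyoF (-2.15 ± 0.0343). Tbx5 is also a factor of the atrium, and the 6 atrial muscle markers, such as Myl7, summed to 9.0 to 10.7 FPKM in M-MF (with Nkx2-5 at 0), 38.3 to 41.2 in N-MF, 108.1 to 110.8 in M-MyoF and 862.4 to 901.2 in N-MyoF. Their part in the Tbx5 differences was not tested.

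Tbx3, a repressor, had 9.59, 9.31 and 8.90 FPKM in M-MF and 14.10, 13.45 and 13.25 in N-MF. It had 40.83, 40.86 and 42.65 FPKM in M-MyoF and 52.37, 51.45 and 49.99 in N-MyoF, again with all MyoF libraries above all MF libraries. The log2 change was -2.05 ± 0.0339 in M-MF against M-MyoF and -1.84 ± 0.0339 in N-MF against N-MyoF (limma adjusted p = 1.49e-14 and 3.03e-14). Tbx2, the other repressor, was the lowest T-box member in all 4 groups. Its values were 1.88, 2.02 and 1.92 FPKM in M-MF, 2.48, 2.40 and 2.34 in N-MF, 22.50, 21.95 and 22.48 in M-MyoF, and 19.69, 19.92 and 21.14 in N-MyoF. It was 11.5-fold lower in M-MF than in M-MyoF (-2.99 ± 0.0363) and 8.41-fold lower in N-MF than in N-MyoF (-2.64 ± 0.0363). Unlike the other T-box genes, Tbx2 as deposited stood highest in M-MyoF, just above N-MyoF. The 4 T-box genes together summed to 29.4 ± 0.825 FPKM in M-MF, 43.7 ± 0.574 in N-MF, 233 ± 1.29 in M-MyoF and 270.5 ± 3.06 in N-MyoF (mean ± SD, n = 3). They made up 31.2% of the FPKM of the 10 factors in M-MF and 24.8% in N-MF, but 82.0% in M-MyoF and 80.2% in N-MyoF.

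Foxf1 had 8.63, 9.05 and 7.90 FPKM in M-MF and 10.65, 10.43 and 10.91 in N-MF. In MyoF it had 28.28, 28.44 and 29.75 FPKM in M-MyoF and 43.86, 39.42 and 44.09 in N-MyoF. It was 3.38-fold lower in M-MF than in M-MyoF (-1.65 ± 0.0499; limma adjusted p = 5.86e-12) and 3.98-fold lower in N-MF than in N-MyoF (-1.90 ± 0.0499; adjusted p = 1.08e-12). Its close relative Foxf2, not a member, was lower in MF too, by -2.40 ± 0.0428 in metastasis and -2.28 ± 0.0428 in normal lungs. Endothelium also expresses Foxf1, and the 8 endothelial markers, none of them at 0 in any group, summed to 259.2 to 264.7 FPKM in M-MF, 197.6 to 201.3 in N-MF, 528 to 535 in M-MyoF and 459.9 to 467.8 in N-MyoF. The 5 pericyte markers (Cspg4, Pdgfrb, Rgs5, Notch3, Kcnj8) summed to 73.7 to 77.3 FPKM in M-MF, 119 to 124.6 in N-MF, 261.3 to 266.4 in M-MyoF and 251 to 256.4 in N-MyoF. Both sums were higher in MyoF, as Foxf1 was. All 5 pericyte markers passed as lower in MF in both conditions. Of the 8 endothelial markers (Pecam1, Cdh5, Kdr, Tek, Tie1, Cldn5, Emcn, Plvap), 7 passed as lower and 0 as higher in M-MF against M-MyoF. In N-MF against N-MyoF, 7 passed as lower and 1 as higher, Tek, at 48.2 FPKM in N-MF and 31.9 in N-MyoF. The part of both lists in the Foxf1 and T-box differences was not tested.

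Prrx1 was the most abundant factor in M-MF, with 24.52, 24.52 and 24.86 FPKM there and 30.32, 30.66 and 30.41 in N-MF. It had 7.63, 7.99 and 7.96 FPKM in M-MyoF and 10.77, 9.88 and 10.93 in N-MyoF, so all MF libraries were above all MyoF libraries. Its log2 change was 1.53 ± 0.0348 in M-MF against M-MyoF and 1.45 ± 0.0348 in N-MF against N-MyoF (limma adjusted p = 3.34e-13 and 4.19e-13). Meox2 had 12.02, 12.39 and 12.19 FPKM in M-MF, 32.42, 33.16 and 34.11 in N-MF, 2.03, 2.18 and 2.28 in M-MyoF, and 2.22, 2.45 and 2.50 in N-MyoF. It was 5.64-fold higher in M-MF than in M-MyoF (2.06 ± 0.0419) and 13.9-fold higher in N-MF than in N-MyoF (3.34 ± 0.0419). That normal difference ranked 70 of 13300 among genes higher in N-MF. Twist2, known from dermis, had 11.94, 11.76 and 11.62 FPKM in M-MF, 37.86, 40.74 and 39.07 in N-MF, 3.96, 3.69 and 4.80 in M-MyoF, and 5.32, 4.33 and 3.91 in N-MyoF. It was 2.84-fold higher in M-MF than in M-MyoF (1.32 ± 0.0873) and 8.68-fold higher in N-MF than in N-MyoF (2.87 ± 0.0873).

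Meox1 did not keep the MF pattern of Meox2. It had 5.69, 5.79 and 5.31 FPKM in M-MF, 17.15, 18.50 and 17.75 in N-MF, 6.52, 6.94 and 6.11 in M-MyoF, and 6.32, 7.22 and 6.73 in N-MyoF. N-MF stood apart, at 2.63-fold the level of N-MyoF (1.28 ± 0.0532; limma adjusted p = 1.20e-10). In metastasis Meox1 passed as lower in M-MF than in M-MyoF by -0.19 ± 0.0532 (limma adjusted p = 0.00523), and this direction was set by the scaling. With equal sums per library it was -0.10 and did not pass, with median-ratio scaling it was 0.09 and did not pass, and with quantile normalization it passed as higher at 0.13. Twist1, the least abundant factor in 3 of the 4 groups, had 1.93, 2.11 and 2.31 FPKM in M-MF, 1.14, 1.12 and 1.45 in N-MF, 1.40, 1.29 and 1.80 in M-MyoF, and 0.23, 0.21 and 0.21 in N-MyoF. It was higher in M-MF than in M-MyoF by 0.32 ± 0.0802 and in N-MF than in N-MyoF by 0.88 ± 0.0802 (limma adjusted p = 0.00226 and 3.89e-07). M-MyoF and N-MF overlapped in Twist1, although neither comparison sets these groups against each other.

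**Figure D2:**
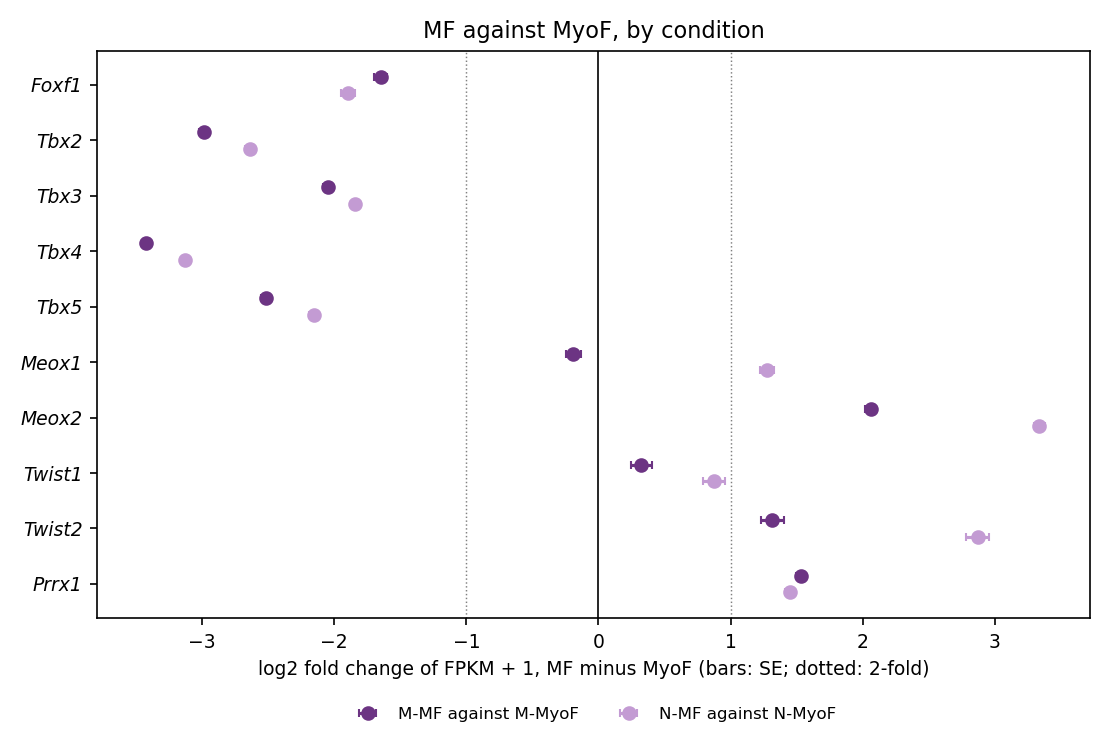
Log2 change of FPKM + 1 between MF and MyoF for each factor, in metastasis (dark) and in normal lungs (light). Bars are standard errors and dotted lines mark 2-fold. Foxf1 and the Tbx genes lie left of -1 in both, Meox2, Twist2 and Prrx1 lie right of 1, and Meox1 lies at -0.19 in metastasis, a value whose sign turned under 2 scalings, and at 1.28 in normal lungs.

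M-MF against N-MF, a comparison named in the series design, sets matrix fibroblasts of metastatic lungs beside those of healthy animals. Twist2, Meox1 and Meox2 fell the most of the 10 factors, each by over 2-fold, the T-box genes, Foxf1 and Prrx1 fell by less, and Twist1 alone of the 10 rose. Of 10 members, 1 passed as higher and 9 as lower, where 46.3% of all genes passed as higher and 31.8% as lower. At 2-fold or more, 0 were higher and 3 lower, against 9.32% and 2.54% of all genes. A call without a minimum fold was thus common among all genes. All 10 members had groups that did not overlap, as did 79.8% of all genes. The median log2 change of the members was -0.52, against 0.08 for all genes. Over all genes 59.3% of calls were higher, and 49.7%, 47.8% and 40.4% were so under equal sums, then median-ratio scaling, then quantile normalization, which shifted the median of all genes by -0.09, -0.11 and -0.19. The split of the members stayed at 1 higher and 9 lower under all 3 scalings.

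Twist2 fell to 11.8 ± 0.160 FPKM in M-MF, against 39.2 ± 1.45 in N-MF, with no library of M-MF above 11.94 and none of N-MF below 37.86. The log2 change was -1.65 ± 0.0873 (limma adjusted p = 1.66e-09), which ranked 69 from the lowest of 13300 genes. Meox1 fell to 5.60 ± 0.253 FPKM in M-MF, against 17.8 ± 0.676 in N-MF (-1.51 ± 0.0532; limma adjusted p = 2.75e-11), rank 102 from the lowest. Meox2 fell to 12.2 ± 0.185 FPKM in M-MF, against 33.2 ± 0.847 in N-MF (-1.37 ± 0.0419; limma adjusted p = 6.59e-12), rank 141 from the lowest. FPKM ratios of N-MF over M-MF were 3.33 for Twist2, 3.18 for Meox1 and 2.72 for Meox2. Prrx1, expressed in the same libraries at a like level, fell by less, to 24.6 ± 0.196 FPKM in M-MF against 30.5 ± 0.176 in N-MF (-0.30 ± 0.0348; limma adjusted p = 5.01e-06).

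The T-box genes also fell in M-MF, by less than 2-fold. Tbx5 changed by -0.59 ± 0.0343, Tbx4 by -0.53 ± 0.0269 and Tbx3 by -0.51 ± 0.0339 (limma adjusted p = 4.16e-09, 1.16e-09 and 1.80e-08). Tbx2 changed by -0.21 ± 0.0363 from a low level, and Foxf1 by -0.29 ± 0.0499 (limma adjusted p = 0.000145 and 0.000141). Twist1 rose to 2.12 ± 0.190 FPKM in M-MF, against 1.24 ± 0.185 in N-MF (0.48 ± 0.0802; limma adjusted p = 0.000121). Its lowest M-MF library, at 1.93 FPKM, was above its highest N-MF library, at 1.45. Markers of other cell types moved in this comparison as well. The 7 mesothelial markers (such as Msln and Upk3b), none of them at 0, summed to 242.5 to 247.4 FPKM in M-MF against 6.74 to 7.04 in N-MF, and 6 proliferation genes such as Mki67 to 75.6 to 80.8 in M-MF against 1.33 to 2.15 in N-MF. The 5 neutrophil markers such as S100a8, none of them at 0, summed to 229.6 to 240.2 FPKM in M-MF and 31.2 to 34.5 in N-MF, while the leukocyte marker Ptprc lay at 0.44 to 0.52 in M-MF and 0.55 to 0.74 in N-MF. Of the atrial muscle markers, all 5 tested passed as lower in M-MF. All 5 general fibroblast markers passed as lower in M-MF too. Of the 6 matrix fibroblast markers, 5 passed as lower, 3 of them at 2-fold, and 0 as higher. The matrix markers summed to 1549 to 1558 FPKM in M-MF against 5394 to 5530 in N-MF, mostly Inmt and Dpt. The part of these cells and markers in the falls of the 9 factors and the rise of Twist1 was not tested.

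M-MyoF against N-MyoF sets the same conditions side by side in MyoF. Foxf1 and Prrx1 fell the most of the 10 and Twist1 rose. The log2 changes of these 3 were larger in size than in MF, and those of the other 7 smaller. Of 10 members, 2 passed as higher and 6 as lower, against 49.1% and 31.6% of all genes, and at 2-fold 1 was higher and 0 lower, against 11.4% and 3.24%. Groups did not overlap for 7 members and for 82.2% of all genes, and those of Meox1, Meox2 and Twist2 did overlap. The median log2 change of the members was -0.16, against 0.11 for all genes. Over all genes 60.8% of calls were higher, and 45.3%, 48.2% and 41.1% under equal sums, then median-ratio scaling, then quantile normalization, with shifts of the median of -0.17, -0.13 and -0.22. The members then split into 1 higher and 8 lower under the first 2 of these scalings and 1 higher and 9 lower under quantile normalization.

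Foxf1 fell to 28.8 ± 0.807 FPKM in M-MyoF, against 42.5 ± 2.63 in N-MyoF, a log2 change of -0.54 ± 0.0499 (limma adjusted p = 4.10e-07). Prrx1 fell to 7.86 ± 0.200 FPKM in M-MyoF, against 10.5 ± 0.566 in N-MyoF (-0.38 ± 0.0348; limma adjusted p = 3.96e-07). Tbx3, Tbx4 and Tbx5 fell by -0.30 ± 0.0339, -0.23 ± 0.0269 and -0.23 ± 0.0343 on the log2 scale (limma adjusted p = 3.07e-06, 3.93e-06 and 4.60e-05). These falls, from 1.17-fold to 1.24-fold in FPKM for the 3 T-box genes, were larger than the spread between libraries and small beside the difference between MF and MyoF. Of the atrial muscle markers given beside Tbx5, all 5 tested passed as lower in M-MyoF. The endothelial markers named beside Foxf1 summed to 528 to 535 FPKM in M-MyoF and 459.9 to 467.8 in N-MyoF, with 3 of the 8 passing as higher and 3 as lower and a median log2 change of -0.04. Neutrophil markers summed to 12670 to 13030 FPKM in M-MyoF against 123.8 to 134.8 in N-MyoF, and Ptprc lay at 9.17 to 9.74 in M-MyoF and 3.69 to 3.87 in N-MyoF. Mesothelial markers summed to 206.9 to 214.3 FPKM in M-MyoF against 82.1 to 82.9 in N-MyoF, and the 5 cartilage markers, such as Acan, to 22.8 to 23.1 in M-MyoF against 282.2 to 289.4 in N-MyoF. The 6 proliferation genes, all passing as higher, summed to 144.4 to 148 FPKM in M-MyoF against 3.51 to 3.96 in N-MyoF. All 6 matrix fibroblast markers passed as lower in M-MyoF, 2 of them at 2-fold. Of the 5 general fibroblast markers, 2 passed as lower and 0 as higher. The part of all these markers in the falls, and in the rise of Twist1, was not tested.

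Twist1 rose to 1.50 ± 0.268 FPKM in M-MyoF, against 0.217 ± 0.0115 in N-MyoF, with a log2 change of 1.03 ± 0.0802 (limma adjusted p = 7.42e-08). The FPKM ratio was 6.91, and the size on the log2 scale hung on the pseudocount, at 2.32 with 0.1 and 0.32 with 5. Without M-MyoF library 3, the highest of its group, the log2 change was 0.95, under 2-fold, and no member then passed at that size. Tbx2 passed as higher in M-MyoF by 0.13 ± 0.0363 (limma adjusted p = 0.00434), but it was -0.05 with equal sums and -0.020 with median-ratio scaling, neither passing, and passed as lower at -0.12 with quantile normalization. Meox2 passed narrowly as lower, at -0.10 ± 0.0419 (limma adjusted p = 0.0435), and did not pass when any 1 of 10 of the 12 libraries was left out. Meox1 (-0.04 ± 0.0532, adjusted p = 0.457) and Twist2 (-0.10 ± 0.0873, adjusted p = 0.314) did not pass in limma as deposited. Both passed as lower under all 3 scalings, at -0.22, -0.18 and -0.24 for Meox1 and -0.28, -0.22 and -0.29 for Twist2, in the order equal sums, median-ratio scaling, quantile normalization.

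**Figure D3:**
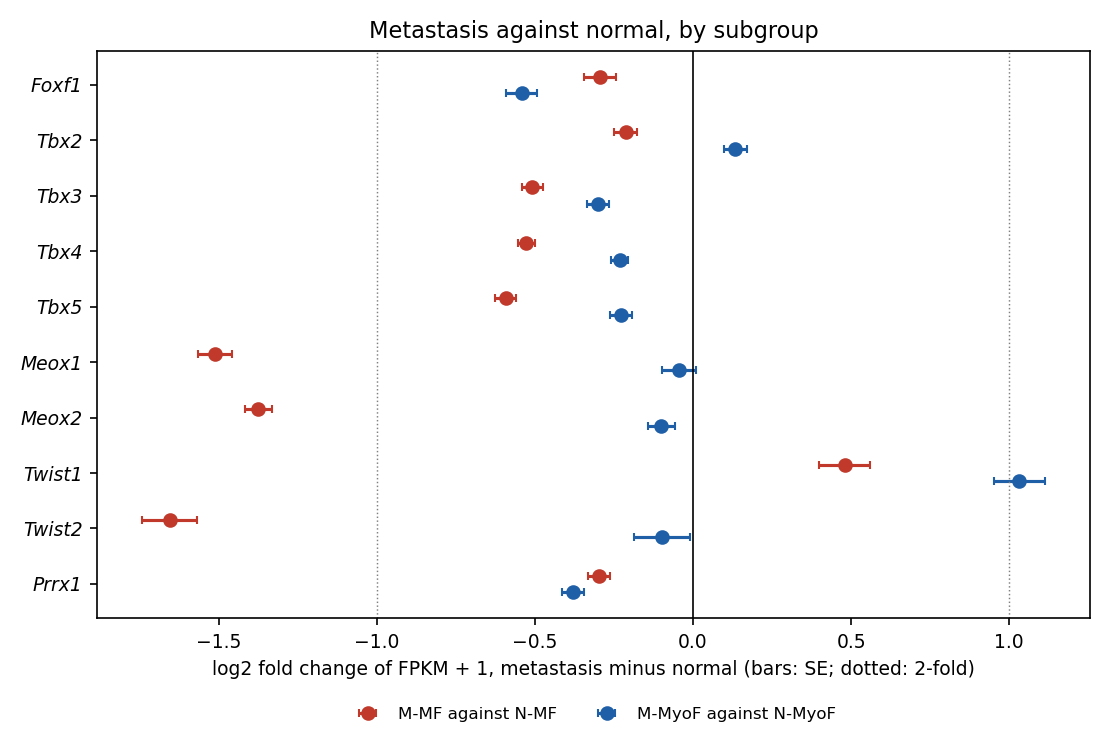
Log2 change of FPKM + 1 between metastasis and normal lungs for each factor, in MF (red) and MyoF (blue). Bars are standard errors and dotted lines mark 2-fold. Meox1, Meox2 and Twist2 lie left of -1 in MF and between -0.10 and -0.04 in MyoF, and Twist1 lies right of 0 in both.

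The difference of these metastasis effects, M-MF against N-MF minus M-MyoF against N-MyoF, tests whether MF and MyoF changed unequally. Twist2, Meox1 and Meox2 had the largest differences of the 10. Of 10 members, 1 had a higher and 8 a lower effect in MF, against 26.4% and 38.0% of all genes, and at 2-fold 0 were higher and 3 lower, against 3.83% and 3.27%. The median difference over the members was -0.36, against -0.06 for all genes. Twist2 differed by -1.56 ± 0.124, Meox1 by -1.47 ± 0.0752 and Meox2 by -1.27 ± 0.0592 (limma adjusted p = 2.81e-07, 4.12e-09 and 1.68e-09). Foxf1 had the opposite sign, 0.25 ± 0.0706 (limma adjusted p = 0.00824), since it fell further in MyoF. Prrx1 differed by 0.08 ± 0.0492 and did not pass (limma adjusted p = 0.157), but it passed at 0.17 with equal sums per library and at 0.12 without N-MyoF library 2. Tbx2, Tbx3, Tbx4 and Tbx5 differed by -0.35, -0.21, -0.30 and -0.37, and Tbx3 and Tbx4 did not pass after quantile normalization. Twist1 differed by -0.55 ± 0.113 (limma adjusted p = 0.000991), its rise being larger in MyoF on this scale.

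Ratios between close relatives show how the balance within each family stood, and a factor common to all genes of a library leaves them unchanged. Twist2 over Twist1 was 5.60 ± 0.579 in M-MF and 32.2 ± 4.80 in N-MF (mean of library ratios ± SD, n = 3). It was 2.79 ± 0.104 in M-MyoF and 20.8 ± 2.26 in N-MyoF, so Twist2 was above Twist1 in every library and by less in metastasis. The N-MyoF ratio divides by Twist1 values near the floor, 0.21 to 0.23 FPKM. Meox2 over Meox1 was 2.18 ± 0.0988 in M-MF and 1.87 ± 0.0674 in N-MF, but 0.333 ± 0.0349 in M-MyoF and 0.354 ± 0.0162 in N-MyoF. Meox2 was thus the higher of the pair in MF and Meox1 in MyoF. Tbx4 over Tbx5 was 1.23 ± 0.0474 in M-MF and 1.16 ± 0.0660 in N-MF, against 2.28 ± 0.0390 in M-MyoF and 2.29 ± 0.0376 in N-MyoF. Tbx2 over Tbx3 was 0.210 ± 0.0117 in M-MF, 0.177 ± 0.00132 in N-MF, 0.538 ± 0.0120 in M-MyoF and 0.395 ± 0.0245 in N-MyoF. Ratios of the activators stood by subgroup and overlapped between metastasis and normal lungs, while those of the repressors did not overlap between any 2 groups. These ratios are a description, with no test.

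**Figure D4:**
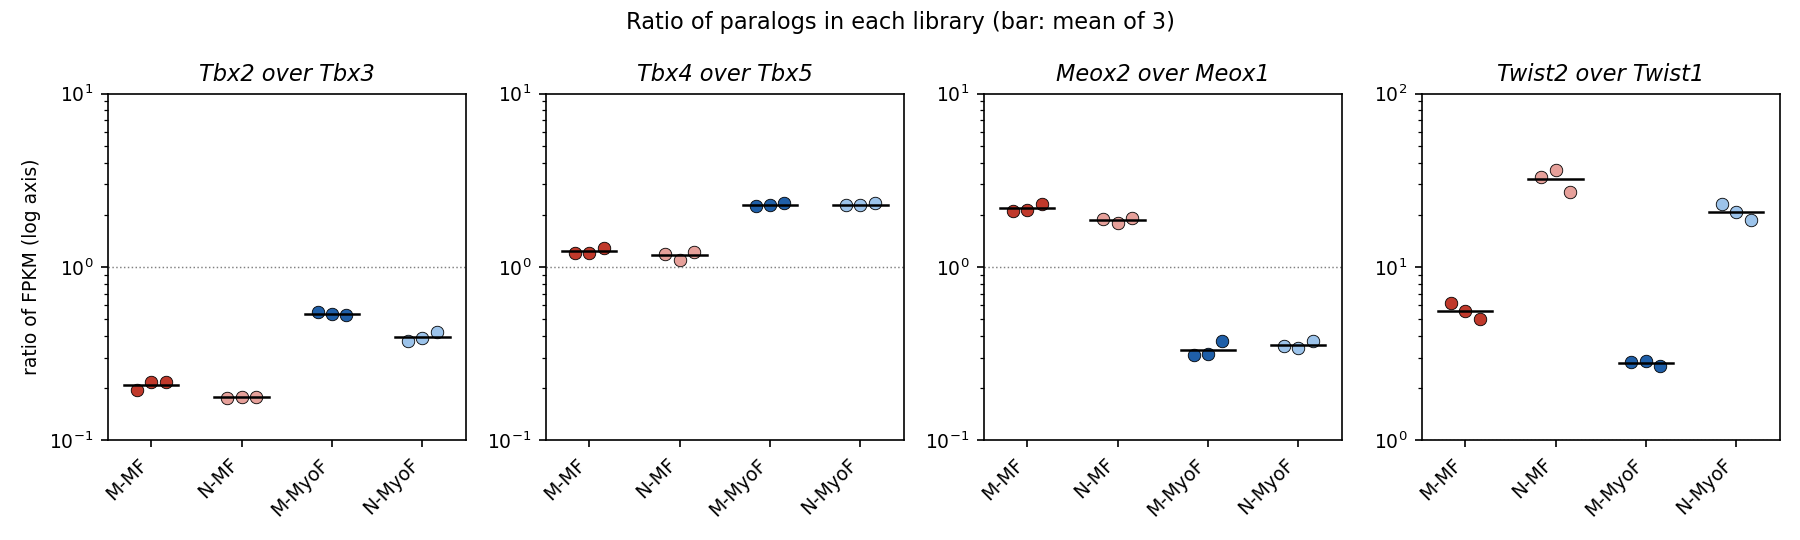
Ratio of FPKM of 4 pairs of related factors in each library on a log axis, with a bar at the mean of 3 libraries; the last panel has its own axis range. Twist2 over Twist1 is lower in M-MF (5.60) than in N-MF (32.2) and lower in M-MyoF (2.79) than in N-MyoF (20.8), and Meox2 over Meox1 is above 1 in MF and below 1 in MyoF. Twist1 in N-MyoF was near the floor, at 0.21 to 0.23 FPKM.

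Other factors of lung and general mesenchyme were read beside the 10 members. Of 31 tested, 7 rose and 20 fell in M-MF against N-MF, 2 and 5 of them by 2-fold or more, with a median of -0.46. In M-MyoF against N-MyoF, 5 rose and 17 fell, 2 and 0 by 2-fold, with a median of -0.17. That median was -0.30 without M-MyoF library 1, and quantile normalization gave 4 higher and 27 lower with a median of -0.42. Tcf21, a factor of lipofibroblast precursors and a matrix fibroblast marker, fell to 72.3 ± 2.42 FPKM in M-MF, against 201.2 ± 8.20 in N-MF (-1.46 ± 0.0389; limma adjusted p = 1.73e-12). It fell by less in MyoF, to 29.7 ± 0.361 FPKM in M-MyoF against 43.0 ± 2.23 in N-MyoF (-0.52 ± 0.0389). Ebf2, a factor of early fat cell precursors, and Tbx20, a T-box factor of the heart, also fell in M-MF, by -1.42 ± 0.0427 and -1.38 ± 0.0700. Foxf2 fell by -0.41 ± 0.0428 in M-MF and -0.29 ± 0.0428 in M-MyoF. Runx2, the bone-forming factor, rose in both subgroups, by 1.22 ± 0.0567 in MF and 1.86 ± 0.0567 in MyoF. Osr2, an odd-skipped factor, rose in M-MyoF (1.71 ± 0.0436) and fell in M-MF (-0.59 ± 0.0436), and the difference of these effects was -2.30 ± 0.0616 (limma adjusted p = 1.05e-11). Between the subgroups, Osr1 and Ebf2 were higher in MF, by 3.06 ± 0.0209 and 2.96 ± 0.0427 in metastasis and by 3.05 ± 0.0209 and 4.49 ± 0.0427 in normal lungs.

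Twist proteins act with E proteins, and Id proteins compete for them. Of the 7 genes of both kinds, 1 rose and 6 fell in M-MF and likewise 1 rose and 6 fell in M-MyoF, with medians of -0.76 and -0.64. Id1 fell to 75.0 ± 4.74 FPKM in M-MF, against 157.6 ± 1.52 in N-MF (-1.06 ± 0.0461). Id3, the most abundant of the 7, fell to 836 ± 12.4 FPKM in M-MyoF, against 1903 ± 50.3 in N-MyoF (-1.19 ± 0.0216).

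Of 12 tested Hedgehog pathway genes, the pathway upstream of Foxf1, 2 rose and 9 fell in M-MF and 0 rose and 9 fell in M-MyoF, with medians of -0.67 and -0.42. The 2 that rose in MF, Dhh (0.15 ± 0.0637) and Gli3 (0.12 ± 0.0463), did not pass as higher under any of the 3 scalings, where 0 rose and 9 fell, and 0 to 3 genes rose in this comparison as single libraries were left out. Gli1, a transcription factor and the usual readout of the pathway, fell to 1.91 ± 0.279 FPKM in M-MF, against 9.83 ± 0.239 in N-MF (-1.90 ± 0.0821; limma adjusted p = 2.18e-10). It fell to 1.52 ± 0.299 FPKM in M-MyoF, against 6.57 ± 0.162 in N-MyoF (-1.60 ± 0.0821; limma adjusted p = 1.11e-09). The coreceptors Cdon and Boc fell in M-MF by -1.46 ± 0.0543 and -1.37 ± 0.0285. Boc and the Hedgehog-binding protein Hhip fell in M-MyoF by -1.01 ± 0.0285 and -1.50 ± 0.0248.

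Among 14 signals of the lung bud mesenchyme, 4 rose and 9 fell in M-MF and 3 rose and 10 fell in M-MyoF, with medians of -0.57 and -0.35. Fgf10, the ligand downstream of Tbx4 and Tbx5, fell to 6.76 ± 0.396 FPKM in M-MF, against 13.9 ± 0.475 in N-MF (-0.94 ± 0.0452). In MyoF it fell to 3.58 ± 0.200 FPKM in M-MyoF, against 8.62 ± 0.121 in N-MyoF (-1.07 ± 0.0452). Fgf10 was thus lower in MyoF, where Tbx4 and Tbx5 were higher. Bmp4, a BMP ligand, and Spry1, an inhibitor of FGF signalling, fell in M-MF by -1.55 ± 0.0309 and -1.21 ± 0.0282. Fgfr2, a receptor of FGF ligands, rose by 2.44 ± 0.0390 in MF and 1.27 ± 0.0390 in MyoF, and Etv4, a factor induced by FGF signals, by 2.18 ± 0.0513 and 3.40 ± 0.0513. Epithelium also expresses Fgfr2, and the 5 epithelial markers summed to 2711 to 2737 FPKM in M-MF against 2235 to 2285 in N-MF, and to 15120 to 15670 in M-MyoF against 18650 to 19150 in N-MyoF. These sums were nearly all Scgb1a1 and Sftpc. Of the 5 markers, 3 passed as higher and 2 as lower in M-MF, and 1 as higher and 3 as lower in M-MyoF. Their part in these changes was not tested. The shares of all genes that passed, given beside the members, hold for these 4 lists too, and all genes tested had medians of 0.08 in MF and 0.11 in MyoF. More genes fell than rose in each of the 4 lists, in both subgroups, also under the 3 scalings. Over all settings run, the medians in MyoF ranged from -0.42 to -0.12 for the other factors, -0.96 to -0.39 for E and Id proteins, -0.64 to -0.22 for the Hedgehog pathway and -0.59 to -0.25 for the lung bud signals. In MF, a pseudocount of 5 put the median of the other factors at -0.23 and that of the lung bud signals at -0.34.

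**Figure D5:**
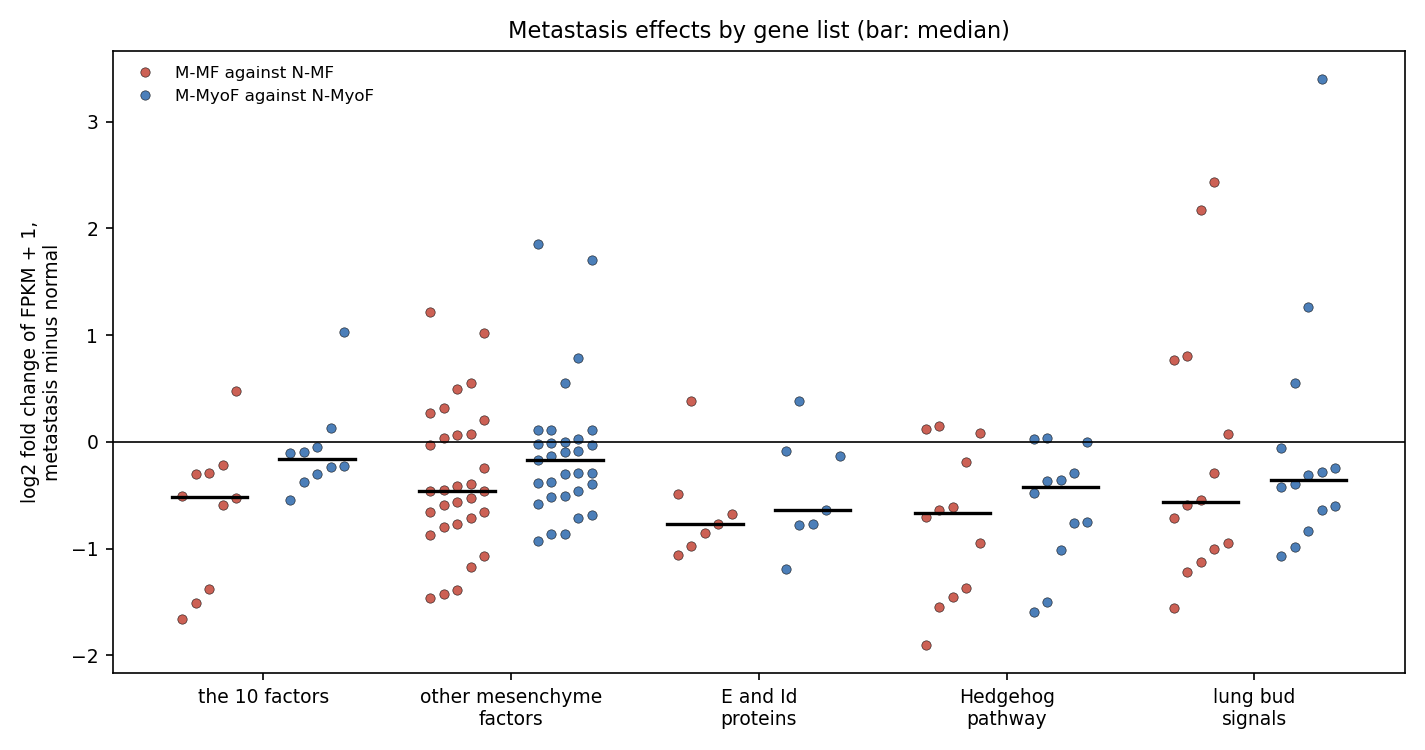
Log2 change of FPKM + 1 between metastasis and normal lungs for every tested gene of 5 lists, in MF (red) and MyoF (blue), with a bar at each list's median. The medians lie below 0 in both subgroups, at -0.52 and -0.16 for the 10 factors and at -0.67 and -0.42 for the Hedgehog pathway, and Etv4 is the highest point at 3.40.

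The genes whose levels followed each factor most closely over the 12 libraries were found by Pearson's r of log2(FPKM + 1) among 9542 genes. The factors themselves and unnamed gene models (Gm, LOC and Rik symbols) were left out of this ranking. The 12 libraries form 4 groups, so such an r describes the order of 4 group levels and carries no p. Tbx4 was followed by Igfbp3, an IGF-binding protein (r = 0.9993), and Pdzd2 (0.9991), and Tbx5 by Gucy1b1, a subunit of the nitric oxide receptor (0.9994), and Adgre5 (0.9991). Tbx3 was followed by Hbb-b1, a haemoglobin chain (0.9992), and Gucy1b1 (0.9989). Hbb-b1 had means of 6.71 FPKM in M-MF, 28.0 in N-MF, 1841 in M-MyoF and 3825 in N-MyoF. No marker list for red blood cells was read here, and their part in this likeness was not tested. Tbx2 was followed by Rcsd1 (0.9985) and Lrrc15 (0.9984), and Foxf1 by Akap11 (0.9988) and Filip1l (0.9984). On the MF side, Meox2 was followed by Hmcn2 (0.9994) and Ntrk2 (0.9990), and Twist2 by Lsamp (0.9963) and Angptl7 (0.9954). Prrx1 was followed by Dcn, the matrix proteoglycan decorin (0.9985), and Pomk (0.9982). Meox1 had fewer close followers, with 4 genes over an r of 0.99, led by Myadm (0.9968) and Plbd2 (0.9929). Twist1 had 0 genes over 0.99 and was nearest to Tmed2 (0.9876) and Rnf135 (0.9870), while the other 8 factors had between 11 and 132 such genes.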

How the data were processed

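RNA was extracted with Trizol, and cDNA was made and amplified from polyA RNA by the SMART-seq2 method before transposon-based library construction, per the labels' protocols. The deposited values are FPKM rounded to 2 decimals, computed by the authors; the genome build was GRCm38 per the submitters' processing notes. Aligner, counter and annotation: not given in the sources used here. Groups came from the sample titles, and 0 columns belonged to no sample.

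Values were taken as log2(FPKM + 1) for the 13300 genes that reached 1 FPKM in 3 or more libraries. R 4.3.3 and limma 3.58.1 fitted 1 model of 4 group means to all 12 libraries, with a variance trend and Benjamini-Hochberg adjustment over all genes tested. Calls needed an adjusted p under 0.05, and changes of 2-fold were counted apart. The code was tested on simulated data. The labels do not say what library numbers mark. Over 1830 genes, deviations from group means correlated at 0.482 to 0.796 in 18 pairs of the same number from different groups. In 36 other pairs from different groups they correlated at -0.683 to 0.38. The numbers were thus taken to pair the samples, but only in the replicate block, an alternative. The main fit, which gave the p-values in the text, left this pairing out. Alternatives were pseudocounts of 0.1 and 5, no filter or one of 5 FPKM, 3 scalings, the compared groups alone, the replicate block, and libraries left out.

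Members and lists were chosen with earlier results of these data known. Named are all members, the 2 genes most like each (those reaching a group mean of 5 FPKM), up to 4 genes per list and comparison with the largest change among those past 2-fold, Tcf21, Foxf2, Fendrr, markers, and overlapping genes. Dhh, Gli3 and the values of Osr2 and Fgf10 in MF were added after their values were seen. Single values of some list genes are not reported here. Python 3.11.15, pandas 2.3.3, numpy 2.4.6 and matplotlib 3.10.9 prepared tables and figures.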

Additional observations from a re-analysis of the deposited data

Results flagged for a closer look

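The metastasis effect differed between MF and MyoF for 9 of the 10 factors, by the test of the difference itself (M-MF against N-MF minus M-MyoF against N-MyoF, limma, Benjamini-Hochberg adjusted over 13300 genes). Twist2 (-1.56), Meox1 (-1.47) and Meox2 (-1.27) fell over 2-fold in MF and changed by -0.10, -0.04 and -0.10 in MyoF. Twist1 (-0.55) rose in both, by 0.48 in MF and 1.03 in MyoF. Tbx5 (-0.37), Tbx4 (-0.30) and Tbx3 (-0.21) fell in both and further in MF. Tbx2 (-0.35) fell in MF by -0.21 and was at 0.13 in MyoF, a value whose sign turned with the scaling. Foxf1 (0.25) fell in both and further in MyoF. Of all genes tested, 26.4% had a higher and 38.0% a lower effect in MF.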

How the results depend on the processing

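Over 50 effects of members and 22 settings, 1053 of 1085 values kept their direction and their side of the threshold, and 42 effects did so in every setting that could be run. In M-MyoF against N-MyoF, Tbx2 turned to -0.0502, -0.0204 and -0.1199 under equal sums, then median-ratio scaling, then quantile normalization, and Twist2 ranged over -0.1866 to 0.0037 as single libraries were left out, the last without N-MyoF replicate 1. In M-MF against M-MyoF, Meox1 turned to 0.0886 and 0.1349 with median-ratio scaling and quantile normalization. The cause was not tested. The count of members past 2-fold in M-MyoF against N-MyoF, 1 as reported (Twist1), was 0 with a pseudocount of 5, with the filter of 5 FPKM, which leaves Twist1 untested, with median-ratio scaling and quantile normalization, and without the 4 libraries numbered 3; leaving out single libraries gave 0 to 1. With the replicate block 10, 8, 9, 10 and 10 members passed in the 5 comparisons and 3, 1, 3, 8 and 9 at 2-fold, so the pairing changed no call. For the other lists, named genes kept direction and call and counts of calls stayed within 1.5 times in 1512 of 1513 values. The exception was the count of E and Id proteins called in M-MF against M-MyoF, 3 with quantile normalization. A fit on the compared groups alone could not be made for the difference of effects, which needs all 4 groups. Depth is unknown, so the precision of low values such as Twist1 in N-MyoF rests on the spread between 3 libraries.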
